A study of Mus musculus with 4 samples.

Results

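Amphiregulin (Areg) and 8 other genes of tissue repair and growth signalling were followed in regulatory T cells (Treg cells), a T cell class defined by FOXP3 that holds immune responses in check, from fat and spleen. The genes were taken by name: Areg, Ereg, Hbegf and Tgfa, which encode ligands of the epidermal growth factor (EGF) receptor, the receptor gene Egfr, and the secreted factor genes Csf1, Vegfa, Penk and Wnt11. All 9 were present among the 23284 gene symbols of the count tables. Sorted cells of C57BL/6 mice aged 12 to 13 months were sequenced, with 1 RNA library for each of 4 groups. The tissues were epididymal white fat (eWAT), which is visceral fat, and spleen as the control. Mice were wild type (WT) or PPARg-2KR (2KR). The 2KR mice carry an altered PPARG, a nuclear receptor that is highly expressed in Treg cells of fat. From the literature, 2KR is a form in which a pair of lysines is replaced by arginine, so that it resembles the deacetylated receptor. The sources used here do not say whether a library came from 1 animal or a pool, in which cells the altered receptor was present, or how the sort was gated.

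As background, the EGF family ligands are made as membrane-bound precursors and released by metalloproteases, mainly ADAM17 and ADAM10. They act on EGFR and other ERBB receptors of epithelial, stromal and immune cells. Treg cells in injured muscle, lung and fat are known to make amphiregulin, and receptors for IL-33 and IL-18 are among its known inputs. CSF1 maintains macrophages, VEGFA drives blood vessel growth, proenkephalin (the product of Penk) is cut into opioid peptides, and WNT11 is a ligand of mainly non-canonical WNT signalling.

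Read totals ranged from 8315569 in 2KR eWAT to 15993889 in 2KR spleen. Genes with reads numbered 19463 (WT) and 18540 (2KR) in spleen and 21271 (WT) and 21775 (2KR) in eWAT. Levels are given in CPM, reads scaled to a common library size after correction by the trimmed mean of M-values (TMM). Where a gene had 0 reads, 3 reads set the limit, between 0.196 and 0.312 CPM. Foxp3 was between 803 and 1407 CPM in every library, and the 8 Treg and T cell markers summed to between 5898 and 7758 CPM. Tissues were compared as 2 eWAT against 2 spleen libraries by the quasi-likelihood test of edgeR, with Benjamini-Hochberg adjustment over 16488 genes. Each tissue held 1 library of each genotype, so the spread in that test includes the genotype difference. Nothing in the labels says that the libraries came from separate animals, so p-values reflect no more than the spread among these 4 libraries, which may be technical. Genotypes within a tissue were compared as log2 ratios of 2KR over WT with 95% intervals and no p-value, because there was 1 library a group. Those intervals and the limits of 3 reads reflect counting error alone, and reads are not independent molecules.

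Between tissues, 6 of the 9 genes rose in eWAT (Areg, Ereg, Tgfa, Egfr, Vegfa and Wnt11), 1 fell (Penk), and 2 did not pass (Hbegf and Csf1). Over all genes tested, 33.7% were higher in eWAT and 23.2% lower, so a call by itself does not set a gene apart here. The median fold change of the 9 genes was 3.27 on the log2 scale, against 0.11 over all genes tested. Genotype ratios were counted over genes that reached 5 CPM in any library, which were 12307 genes and 8 of the members. Ereg stayed below that level. In eWAT, Areg and Csf1 lay at a log2 ratio of −1 or lower, where 2.33% of genes lay, and Tgfa at 1 or higher, where 5.35% lay. In spleen, Tgfa and Egfr lay at −1 or lower, where 5.71% of genes lay, and 0 members lay at 1 or higher, where 1.01% lay. Tgfa and Egfr both had a mean under 20 CPM. Of such genes, 14.5% lay at −1 or lower in spleen and 13.1% at 1 or higher in eWAT. Genotype ratios of opposite sign in eWAT and spleen, with both counting intervals away from 0, were found for Csf1 and Tgfa among these 8 members. They were also found in 13.8% of the 12307 genes, and in 12.4% of those with a mean under 20 CPM.

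**Figure D1:**
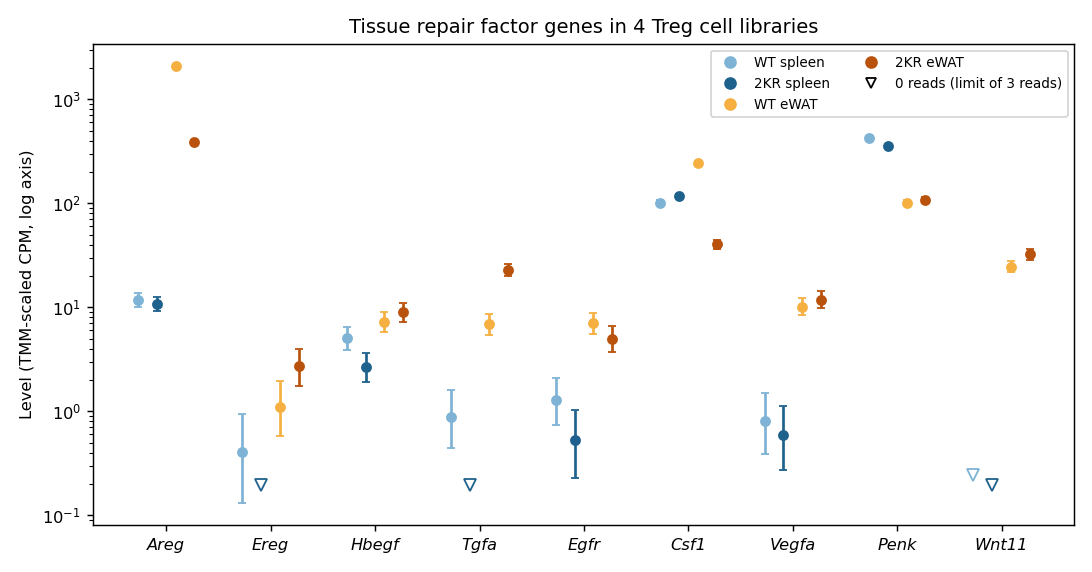
Level of the 9 genes in each of the 4 libraries, in TMM-scaled CPM on a log axis; points are libraries, bars are exact 95% Poisson intervals of the reads, and open triangles mark 0 reads at the limit of 3 reads. Areg is at 2068 (WT) and 387 CPM (2KR) in eWAT, Csf1 in 2KR eWAT lies below its 3 other libraries, and Penk is higher in both spleen libraries.

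Areg was the most abundant of the 9 genes in fat and scarce in spleen. In spleen it stood at 11.8 (WT) and 10.7 CPM (2KR), in eWAT at 2068 (WT) and 387 CPM (2KR). Both fat libraries lay far above both spleen libraries, and the WT fat library stood above the 2KR fat library. The tissue fold change was 6.77 on the log2 scale (edgeR adjusted p = 2.61e-06; SE 0.64). Within WT the eWAT level was 176-fold that of spleen, and within 2KR it was 36.0-fold. Without the WT eWAT library the joint value was 5.004 log2 units. These comparisons share libraries with the genotype ratios and are given side by side. By FPKM, the deposited value that is also scaled for transcript length, Areg was number 25 of 23235 symbols in WT eWAT and number 164 in 2KR eWAT. In spleen it was number 7221 (WT) and 7081 (2KR).

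Between genotypes, the Areg level in WT eWAT was 5.35-fold that in 2KR eWAT, a log2 ratio of −2.42 (−2.47 to −2.37). In spleen the log2 ratio was −0.13 (−0.46 to 0.20), an interval that includes 0. The eWAT ratio was number 14 from the lowest among 12307 genes, of which 0.219% lay at −2 or lower. Foxp3, a marker of the sorted cells themselves, had an eWAT ratio of −0.53 (−0.57 to −0.49). In bulk libraries, fewer cells of a type and less RNA per cell cannot be told apart. Innate lymphoid type 2 cells also make amphiregulin. Their 7 markers summed to 5.65 (WT) and 14.7 CPM (2KR) in spleen and to 163 (WT) and 92.6 CPM (2KR) in eWAT. All 6 of those markers that were tested rose in eWAT, and Il13 had 7 and 4 reads in the WT and 2KR fat libraries and 0 in both spleen libraries. Their part in the Areg values was not tested.

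The upstream sequences of Areg and Csf1 are shown because these members had the largest falls from WT to 2KR eWAT. RefSeq promoter windows on GRCm38.p6 were found for 6 of the 9 genes, and the 250 bases before the annotated start were searched on both strands. Capitals mark the cyclic AMP response element (CRE, TGACGTCA, which equals its own reverse complement) and the TATA box (TATAAA) in Areg. In Csf1 they mark an NF-kB motif, here GGG, then any 2 bases, then TTTCC, which is read on the opposite strand.
Areg, chr5:91139349-91139598, plus strand: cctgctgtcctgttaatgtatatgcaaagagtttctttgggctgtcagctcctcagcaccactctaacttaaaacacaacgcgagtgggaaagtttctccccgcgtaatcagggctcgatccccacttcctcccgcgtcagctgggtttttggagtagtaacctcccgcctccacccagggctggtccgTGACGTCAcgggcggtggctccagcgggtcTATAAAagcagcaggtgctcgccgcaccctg
Csf1, chr3:107760470-107760719, minus strand: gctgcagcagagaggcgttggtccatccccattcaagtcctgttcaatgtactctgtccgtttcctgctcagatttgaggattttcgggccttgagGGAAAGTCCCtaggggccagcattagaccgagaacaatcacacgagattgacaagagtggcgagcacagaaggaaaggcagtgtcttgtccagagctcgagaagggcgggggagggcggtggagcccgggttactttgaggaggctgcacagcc

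The Areg CRE lay 61 to 54 bases before the start, and 1.55% of all 32851 windows held that motif. The TATA box ended 26 bases before the start and was in 12.4% of windows. The shorter CRE core TGACG, which overlaps the CRE, was in 17.8% of windows and also lay 115 to 111 bases before the Areg start. The Csf1 match to the NF-kB motif lay 154 to 145 bases before the start, and 1.41% of windows held such a match. The direct repeat bound by PPARG with RXR (AGGTCA, any 1 base, AGGTCA) was in neither sequence and in 0.0335% of all windows. The AP-1 motif TGANTCA was in neither sequence and in 6.75% of windows. These are matches of letters in a short window, and binding was not measured.

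Of the other EGFR ligands, Tgfa, the transforming growth factor alpha gene, had the opposite genotype pattern in fat. In spleen it had 11 reads (WT) and 0 reads (2KR), in eWAT 75 (WT) and 221 reads (2KR), which is 0.887, 0, 6.92 and 23.0 CPM. Both fat libraries lay above both spleen libraries, and 2KR eWAT was the highest. Tgfa rose in eWAT, at a tissue fold change of 5.14 on the log2 scale (edgeR adjusted p = 0.000423; SE 0.87), although DESeq2 gave an adjusted p of 0.0722. The value depended on each library, from 3.96 without 2KR eWAT and 3.99 without 2KR spleen to 10.44 without WT spleen. In that last fit 0 spleen reads of Tgfa remained, so 10.44 is not a measured size. The eWAT genotype ratio was 1.71 (1.35 to 2.13), a 3.32-fold difference. The Tgfa level of WT spleen was 4.52-fold the limit of 3 reads in 2KR spleen, and that of 2KR eWAT was 117-fold that limit. The counting interval of the spleen genotype ratio ended at −1.63 and had no lower end. Among weakly expressed genes, with a mean under 20 CPM, an eWAT ratio of 1 or more occurred in 13.1% and a spleen ratio of −1 or less in 14.5%.

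Ereg, which encodes epiregulin and lies beside Areg on chromosome 5, was almost absent. It had 5 (WT) and 0 reads (2KR) in spleen and 12 (WT) and 26 reads (2KR) in eWAT, with a highest level of 2.71 CPM. The 2 fat libraries were again the higher ones, with a tissue fold change of 3.27 on the log2 scale (edgeR adjusted p = 0.0164; SE 1.04). The value was 7.48 without the WT spleen library, where 0 spleen reads of Ereg remained, so 7.48 is not a measured size. The call was lost in DESeq2 (adjusted p = 0.0574), with genotype as a further term (0.0542), without the 2KR spleen library (0.126) and without the 2KR eWAT library (0.206). The genotype ratio in eWAT was 1.17 (0.25 to 2.41). In mm9 Ereg spans 91503643 to 91522675 and Areg 91568641 to 91577458 on chromosome 5, with centres 59.9 kb apart. The other EGF ligand genes of this cluster, Epgn and Btc, had at most 3 and 95 reads in any library, while Areg had 22404 in WT eWAT.

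Hbegf, which encodes heparin-binding EGF-like growth factor, stood at 5.08 (WT) and 2.68 CPM (2KR) in spleen and at 7.29 (WT) and 8.95 CPM (2KR) in eWAT. The fat libraries were the higher ones, by less than for the other ligands. Its tissue fold change was 1.07 on the log2 scale (edgeR adjusted p = 0.0759; SE 0.49), and among the alternatives run it passed only without the WT spleen library (adjusted p = 0.0424). Genotype ratios were 0.29 (−0.16 to 0.75) in eWAT and −0.88 (−1.52 to −0.33) in spleen.

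Egfr, the receptor for all 4 of these ligands, was weakly expressed. It had 16 (WT) and 8 reads (2KR) in spleen and 76 (WT) and 48 reads (2KR) in eWAT, which is 1.29, 0.524, 7.01 and 4.99 CPM. Both fat libraries lay above both spleen libraries, and Egfr rose in eWAT, by 2.74 in log2 units (edgeR adjusted p = 0.00387; SE 0.66). Its genotype ratio was −0.48 (−1.04 to 0.05) in eWAT and −1.08 (−2.73 to 0.01) in spleen. In deposited FPKM the genotypes were close, at 0.153 (WT) and 0.157 (2KR) in spleen and 1.51 (WT) and 1.53 (2KR) in eWAT. Without the WT spleen library the tissue value was 3.45, and without the 2KR spleen library 2.16. Fibroblast and mesothelial markers come from cells known to carry EGFR. All 10 rose in eWAT, and they summed to 7.99 (WT) and 4.32 CPM (2KR) in spleen and to 554 (WT) and 236 CPM (2KR) in eWAT. Lum, a matrix proteoglycan gene, had 0 reads in both spleen libraries. The part of such cells in the Egfr values was not tested. Erbb3, a receptor of neuregulins, stood at between 10.7 and 14.3 CPM in the 4 libraries with no tissue call (edgeR adjusted p = 0.704). Erbb2 (adjusted p = 0.15) and Erbb4 (0.0767) did not pass either.

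**Figure D2:**
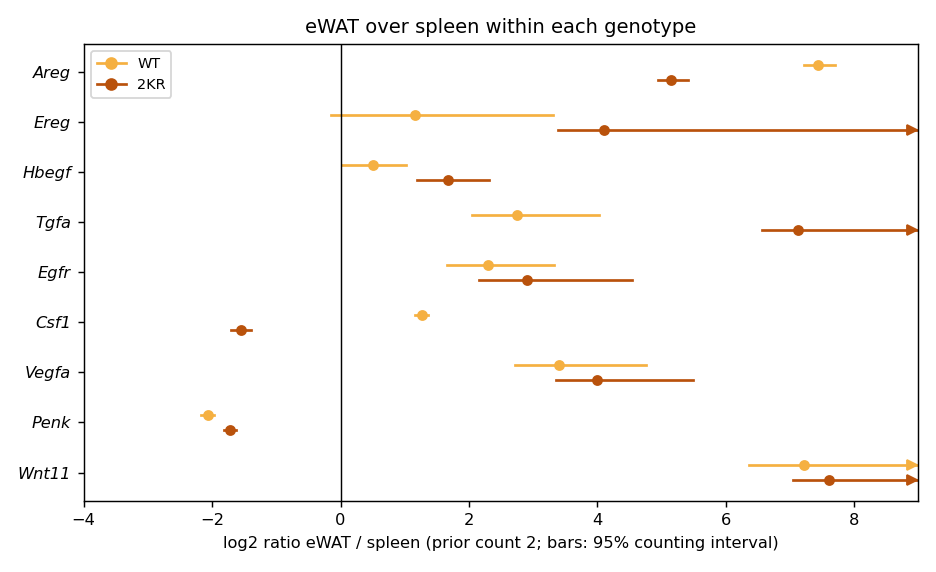
Log2 ratio of eWAT over spleen for each gene, within WT and within 2KR, with prior count 2 and exact 95% counting intervals as bars; arrowheads mark intervals without an upper end. Csf1 lies at 1.26 in WT and −1.54 in 2KR, while Penk lies below 0 and the other 7 genes above 0 in both genotypes.

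Csf1, the gene for macrophage colony-stimulating factor, differed between tissues in opposite directions in the 2 genotypes. In spleen it stood at 101 (WT) and 118 CPM (2KR), in eWAT at 242 (WT) and 40.5 CPM (2KR). WT eWAT was the highest and 2KR eWAT the lowest library, with both spleen libraries between them. The WT eWAT level was 2.40-fold the WT spleen level (log2 ratio 1.26, 1.17 to 1.36). In 2KR the spleen level was 2.92-fold the eWAT level (log2 ratio of eWAT over spleen −1.54, −1.71 to −1.39). The joint tissue test gave a log2 fold change of 0.37 (edgeR adjusted p = 0.537; SE 0.49). Without the 2KR eWAT library it was 1.07 (adjusted p = 2.42e-08), and without the WT eWAT library −1.54 (adjusted p = 3.94e-12). In those fits 1 eWAT library stood against both spleen libraries, so the spread came from the spleen pair and the lone library was assumed to vary like it.

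The genotype ratio of Csf1 was −2.58 in eWAT (−2.74 to −2.43), a 5.99-fold lower level in 2KR, and 0.23 in spleen (0.12 to 0.33). The eWAT ratio was number 9 from the lowest among 12307 genes. Cufflinks, the authors' tool for FPKM, split the gene into 3 transcripts. The 4176-base transcript took 67.1 to 79.6% of the gene's FPKM, at 19.6 (WT) and 21.3 FPKM (2KR) in spleen and 42.7 (WT) and 9.17 FPKM (2KR) in eWAT. The 3291-base transcript stood at 13.2 FPKM in WT eWAT and 2.04 in 2KR eWAT, and the 2324-base transcript at 7.76 and 1.16. The deposited Cufflinks intervals of the 2 fat libraries did not overlap for any of the 3 transcripts. Csf1r, the receptor for CSF1 on macrophages, had an eWAT ratio of the other sign, with 52.4 (WT) and 96.7 CPM (2KR) in eWAT (log2 ratio 0.88, 0.73 to 1.04).

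Stromal cells also make CSF1, and the fibroblast and mesothelial markers had a median eWAT genotype ratio of −1.11 over the 9 markers that reached 5 CPM. In spleen those markers summed to 7.99 (WT) and 4.32 CPM (2KR), where Csf1 stood at 101 (WT) and 118 CPM (2KR). Their part in the fat values was not tested.

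**Figure D3:**
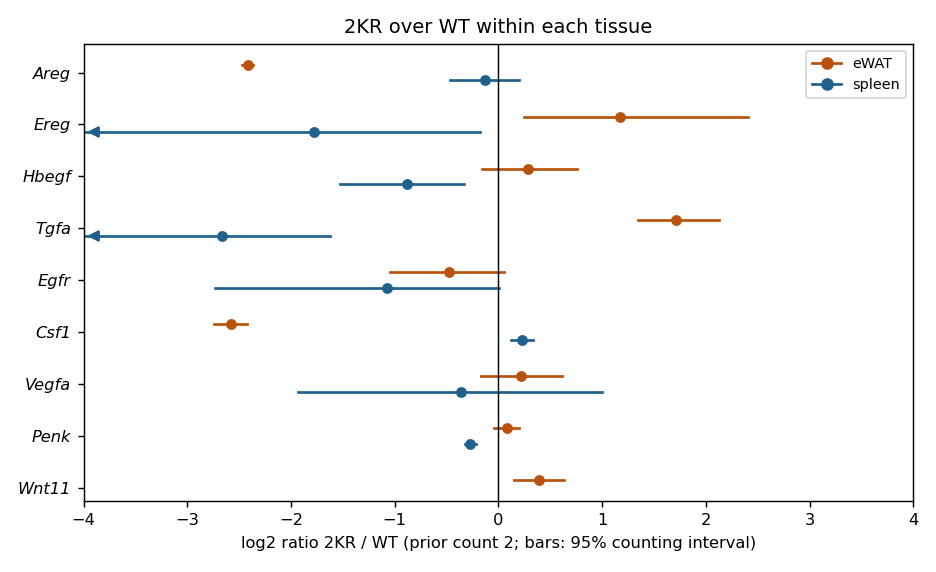
Log2 ratio of 2KR over WT for each gene, within eWAT and within spleen, with prior count 2 and exact 95% counting intervals as bars; arrowheads mark intervals without a lower end, and Wnt11 has no spleen value because both spleen libraries had 0 reads. In eWAT, Areg lies at −2.42, Csf1 at −2.58 and Tgfa at 1.71, while in spleen Areg lies at −0.13 and Csf1 at 0.23.

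Vegfa was low in spleen and higher in fat, with little difference between genotypes. It had 10 (WT) and 9 reads (2KR) in spleen and 110 (WT) and 114 reads (2KR) in eWAT, which is 0.807, 0.589, 10.2 and 11.9 CPM. The tissues did not overlap, and the tissue fold change was 3.97 on the log2 scale (edgeR adjusted p = 8.96e-05; SE 0.55). The eWAT genotype ratio was 0.22 (−0.17 to 0.62), and the spleen ratio was −0.36 with an interval that includes 0. Of 6 annotated transcripts, the 3326-base form took 68.5% of the FPKM in WT eWAT and 60.02% in 2KR eWAT. Macrophages and dendritic cells are other sources of VEGFA, and all 10 macrophage and all 8 dendritic cell markers rose in eWAT. Macrophage markers summed to 123 (WT) and 86.2 CPM (2KR) in spleen and 1296 (WT) and 1652 CPM (2KR) in eWAT. Dendritic cell markers summed to 113 (WT) and 70.7 CPM (2KR) in spleen and 1647 (WT) and 2760 CPM (2KR) in eWAT. Single genes made up most of the eWAT sums. Lyz2 stood at 1015 (WT) and 1212 CPM (2KR) among the macrophage markers, and H2-Aa at 1285 (WT) and 2197 CPM (2KR) among the dendritic cell markers. Their part in the Vegfa, Tgfa and Ereg values was not tested.

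Penk was the member that fell in fat. In spleen it stood at 427 (WT) and 353 CPM (2KR), in eWAT at 102 (WT) and 107 CPM (2KR). Both spleen libraries lay above both fat libraries, by 4.20-fold in WT and 3.29-fold in 2KR. The tissue fold change was −1.90 on the log2 scale (edgeR adjusted p = 1.41e-05; SE 0.21). Between genotypes the ratio was 0.08 (−0.05 to 0.20) in eWAT and −0.27 (−0.33 to −0.22) in spleen. Total count scaling moved the eWAT ratio to 0.33.

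Wnt11 had reads in the fat libraries alone. It had 0 reads in both spleen libraries, 266 reads (24.6 CPM) in WT eWAT and 309 reads (32.1 CPM) in 2KR eWAT. Wnt11 was higher in eWAT (edgeR adjusted p = 1.14e-07), with a pooled level 259-fold a floor of 3 reads over both spleen libraries. Its eWAT genotype ratio was 0.39 (0.15 to 0.63), and 0.64 under total count scaling. The 5 mural cell markers (pericytes and smooth muscle) all rose in eWAT, and summed to 3.79 (WT) and 2.36 CPM (2KR) in spleen and 57.0 (WT) and 139 CPM (2KR) in eWAT. Of 7 adipocyte markers 3 were tested and all 3 rose. For Adipoq, which encodes the adipocyte hormone adiponectin, reads numbered 3 (WT) and 8 (2KR) in spleen and 0 (WT) and 11 (2KR) in eWAT. The part of these cells in the Wnt11 values was not tested.

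Compared per length, the order of the genes differed between tissues. In WT spleen Penk was highest at 297 FPKM, followed by Csf1 at 24.6, Areg at 8.92 and Hbegf at 2.12, with the others at 0.333 FPKM or less. In 2KR spleen the same 4 genes led, at 253, 29.6, 9.60 and 1.12 FPKM. In WT eWAT Areg led at 1978 FPKM, followed by Penk at 74.4 (deposited interval 69.8 to 79.1) and Csf1 at 63.6 (61.0 to 66.2). In 2KR eWAT Areg was at 451, Penk at 97.2, Wnt11 at 13.5 (11.9 to 15.1) and Csf1 at 12.4 (11.1 to 13.7), the last pair with overlapping intervals. Vegfa and Hbegf overlapped in both fat libraries, at 3.14 and 2.86 FPKM in WT and 4.37 and 3.60 FPKM in 2KR. Tgfa was last but one at 1.496 FPKM in WT eWAT, beside Egfr at 1.51 with overlapping intervals, and stood above Vegfa and Hbegf in 2KR eWAT at 6.34 FPKM (5.47 to 7.21).

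Genes with the profile most like that of Areg over the 4 libraries were Ccr1, Fosb, Anxa1, 1700061F12Rik and Ltb4r1. Likeness was the distance between log2 CPM profiles centred on their own mean, over 7685 genes with a mean of at least 20 CPM. Ccr1, a chemokine receptor, was closest at 0.49, with 1.13 (WT) and 0.655 CPM (2KR) in spleen and 241 (WT) and 34.4 CPM (2KR) in eWAT. Anxa1, which encodes the phospholipid-binding protein annexin A1, was at 1531 (WT) and 387 CPM (2KR) in eWAT, and Ltb4r1, a leukotriene B4 receptor, at 384 and 96.1 CPM. Closest to Penk were Clec2i, 2810408M09Rik, 2310001H17Rik, Zc3h12d and Phpt1, within a distance of 0.13. Closest to Vegfa were Marcks, Tubb6, Syk, Pcyt1a and Fcgrt, within 0.38.

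The machinery around the EGFR ligands was measured through gene lists. For this list and those below, 33.7% of all genes tested were higher in eWAT and 23.2% lower. The median log2 fold change over all genes tested was 0.11. Of 10 EGF family ligands tested, 6 rose in eWAT, 0 fell and 4 did not pass, with a median of 2.08 on the log2 scale. Beyond the members, Nrg3, a neuregulin gene, rose by 3.27, from at most 5 reads in a spleen library to 16 and 34 reads in WT and 2KR eWAT. Of 9 genes of ligand shedding and its control, 6 rose, among them the inhibitor gene Timp3, and 0 fell. Adam17, the main sheddase of amphiregulin, stood at 148 (WT) and 152 CPM (2KR) in spleen and 113 (WT) and 114 CPM (2KR) in eWAT (edgeR adjusted p = 0.0758). Rhbdf2, an ADAM17 partner, did not pass (adjusted p = 0.133). Adam8 rose by 3.66 and had an eWAT genotype ratio of −0.83. Timp3, which encodes an inhibitor of ADAM17, rose by 7.69 from at most 7 reads in a spleen library. Adam12 rose by 2.72, and Rhbdf1, a relative of Rhbdf2, by 2.096. Fibroblast and mesothelial markers summed to 7.99 (WT) and 4.32 CPM (2KR) in spleen and to 554 (WT) and 236 CPM (2KR) in eWAT. The part of such cells in the ligand and shedding values was not tested.

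Of 12 EGFR signalling and feedback genes, 3 rose, 2 fell and 7 did not pass. Errfi1, which encodes a feedback inhibitor of EGFR, rose by 3.37 and reached 165 (WT) and 189 CPM (2KR) in eWAT. Lrig3 rose by 3.08 and Spry2 by 2.38, both from 14 reads or fewer in a spleen library. Lrig1, which promotes receptor degradation, fell by 2.29 on the log2 scale and Spry1, a Sprouty feedback inhibitor, by 0.77. Among the 11 genes of the list that reached 5 CPM, Lrig1 was the 1 gene with an eWAT genotype ratio of 1 or higher. Over all 12307 genes, 5.35% lay there, and 0.677% of the 7685 genes with a mean of 20 CPM or more, which include Lrig1. In spleen Lrig1 stood at 156 (WT) and 177 CPM (2KR), in eWAT at 13.7 (WT) and 54.5 CPM (2KR), a genotype ratio of 1.98 (1.73 to 2.27). The part of fibroblasts and other cells whose markers rose in eWAT was not tested for these genes.

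Of 14 genes listed as possible inputs of Areg in Treg cells, 6 rose, 3 fell and 5 did not pass, with a median of 0.39. Il1rl1, the IL-33 receptor, stood at 16.5 (WT) and 27.0 CPM (2KR) in spleen and 1428 (WT) and 278 CPM (2KR) in eWAT, with an eWAT genotype ratio of −2.36 (−2.42 to −2.30). Crem, a factor that binds the CRE, rose by 4.37 and was at 1507 (WT) and 1099 CPM (2KR) in eWAT. Nr4a1, an antigen receptor response gene, rose by 3.46 and had an eWAT ratio of −1.62 (−1.65 to −1.59). Ptger2, a prostaglandin E2 receptor, fell by 2.75, and the lower genes also included Ptger4 and Batf. In eWAT, Il1rl1, Nr4a1 and Gata3 had a genotype ratio of −1 or lower, where 2.33% of the 12307 genes lay. Il18r1, a subunit of the IL-18 receptor, lay at 1.12, and 5.35% of those genes lay at 1 or higher. Of the 7685 genes with a mean of 20 CPM or more, which include Il18r1, 0.677% lay there. The median over the list was −0.12 against −0.08 over all 12307 genes.

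**Figure D4:**
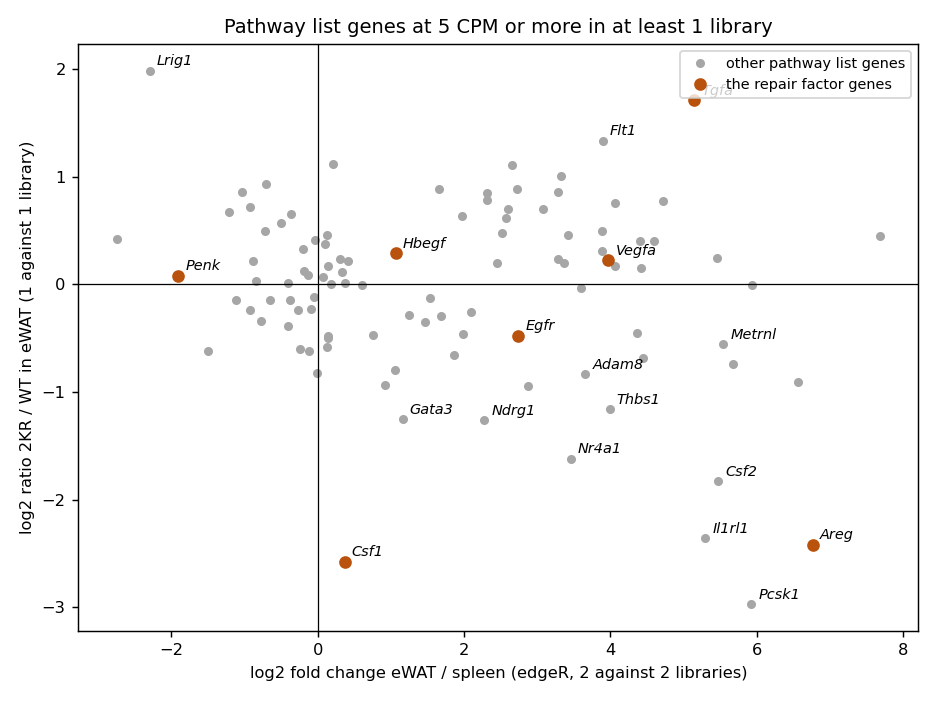
Each point is a pathway list gene that reached 5 CPM in any library and had at least 1 spleen read, placed by its edgeR log2 fold change of eWAT over spleen (2 against 2 libraries) and its log2 ratio of 2KR over WT in eWAT (1 against 1 library). Pcsk1, Csf1, Areg and Il1rl1 lie lowest, at −2.97, −2.58, −2.42 and −2.36, and Wnt11 is not drawn because it had 0 spleen reads.

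Colony-stimulating factors and their receptors gave 6 higher, 0 lower and 1 not passed of 7 tested, with a median of 3.31. Csf2, the gene for GM-CSF, had 7 and 4 reads in WT and 2KR spleen. It reached 28.5 (WT) and 7.91 CPM (2KR) in eWAT, a genotype ratio of −1.83 (−2.23 to −1.48). Csf1 and Csf2 were the 2 genes of this list at −1 or lower, where 2.33% of all 12307 genes lay. The receptor genes Csf2rb and Csf3r rose by 5.45 and 3.72, and Il34, the other ligand of the CSF1 receptor, rose by 3.31 with 18 and 27 reads in the fat libraries. Csf1r rose by 1.65. Macrophage markers, which include Csf1r, were higher in eWAT as given above, and their part in these receptor values was not tested.

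In the VEGF list 7 of 10 genes rose, 1 fell and 2 did not pass, with a median of 3.93. Kdr and Flt1, the VEGF receptors of endothelium, rose by 4.398 and 3.90, with Flt1 at 7.38 (WT) and 18.8 CPM (2KR) in eWAT. Figf (Vegfd) rose by 6.56, Flt4 by 5.21 and Pgf by 4.06. Nrp1, a VEGF and semaphorin coreceptor that marks Treg cells, fell by 0.84 on the log2 scale, from 413 (WT) and 401 CPM (2KR) in spleen to 225 (WT) and 230.3 CPM (2KR) in eWAT. Of 8 endothelial markers, which include Kdr and Flt1, 7 rose and Pecam1, which leukocytes also express, fell. The 7 summed to 4.19 (WT) and 3.21 CPM (2KR) in spleen and 68.3 (WT) and 114.9 CPM (2KR) in eWAT, while Pecam1 stood at 172 (WT) and 190.5 CPM (2KR) in spleen and 63.4 (WT) and 112 CPM (2KR) in eWAT. The part of endothelial cells in these values was not tested. Hypoxia response genes, a class to which Vegfa belongs, gave 4 higher, 2 lower (Pdk1 and Ankrd37) and 6 not passed of 12, with a median of 0.08. Epas1 rose by 4.06, Egln3 by 2.88, Ndrg1 by 2.28 and Adm by 1.98, and Ndrg1 had an eWAT genotype ratio of −1.26 (−1.37 to −1.16).

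Around Penk, 7 of 11 opioid peptide and processing genes rose in eWAT, 1 fell (Penk itself) and 3 did not pass. Pcsk1, the prohormone convertase that cuts proenkephalin, had a tissue difference of the opposite sign to its substrate. In spleen Pcsk1 stood at 1.94 (WT) and 0.589 CPM (2KR), in eWAT at 132 (WT) and 16.6 CPM (2KR). It rose by 5.92 (edgeR adjusted p = 6.16e-05; SE 0.79), and its eWAT genotype ratio was −2.97 (−3.23 to −2.75). Anpep, a peptidase that degrades enkephalins, rose by 4.59, and Pnoc, the nociceptin precursor gene, by 3.24 with at most 38 reads in a library. The opioid receptor genes Oprd1 and Oprm1 rose by 3.27 and 2.71 but had at most 31 and 36 reads in any library, and Oprk1 had at most 8. Whether other cells whose markers rose in eWAT contributed to the values of this list was not tested.

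WNT ligands and release genes gave 9 higher, 1 lower (Wnt3) and 3 not passed of 13 tested, with 8 too weak to test. Their median was 3.42, or 3.29 with Wnt11 and Wnt9b, which had no spleen reads, set against the spleen floor of 3 reads. Wnt9b, with 11 and 9 reads in WT and 2KR eWAT, was at 9.02-fold that floor. Wnt1 and Wnt8b rose by 4.74 and 4.67 with at most 28 and 14 reads. Of 13 WNT receptors tested, 12 rose and Lrp6 did not pass, with a median of 2.46. Over all genes tested, 33.7% were higher in eWAT. Many of these receptors had few spleen reads, and the share among weakly expressed genes alone was not computed. More genes had reads in the eWAT libraries than in the spleen libraries. Fzd8 and Fzd10 each had 0 reads in WT spleen and 3 in 2KR spleen, while Ryk had 284 and 212. Ror1, a receptor for non-canonical WNT ligands, had 0 reads in both spleen libraries and was at 18.5-fold the spleen floor of 3 reads. Fzd4 rose by 4.42, Fzd10 by 3.96 and Fzd1 by 3.60, and Fzd4 and Fzd1 stood at 6.03 to 7.91 CPM in the fat libraries, from at most 12 reads in a spleen library. All 10 fibroblast and mesothelial markers (median 4.76) and all 5 mural cell markers (median 4.76) rose as well, and their part in the WNT values was not tested.

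Other growth and repair factors gave 19 higher, 1 lower (Osm) and 7 not passed of 27 tested, with a median of 2.76. Metrnl, which encodes the secreted factor meteorin-like, rose by 5.54, from 5.65 (WT) and 4.91 CPM (2KR) in spleen to 293 (WT) and 199 CPM (2KR) in eWAT. Il6 rose by 5.93 and stood at 27.3 CPM in both fat libraries. Cyr61, a matricellular factor, rose by 5.68 with an eWAT genotype ratio of −0.74 (−0.97 to −0.52). Bmp4 had 0 spleen reads and was at 33.4-fold the spleen floor of 3 reads. In eWAT the genotype ratio was −1 or lower for Thbs1 and 1 or higher for Pdgfd and Angpt2, among the 17 factors that reached 5 CPM. Pdgfd and Angpt2 stood at 6.35 and 7.39 CPM in 2KR eWAT. Over all 12307 genes, 2.33% lay at −1 or lower and 5.35% at 1 or higher. Among genes with a mean under 20 CPM, 13.1% lay at 1 or higher. Markers of fibroblasts (10 of 10), mural cells (5 of 5), endothelium (7 of 8) and macrophages (10 of 10) rose in eWAT as well, with medians of 4.76, 4.76, 4.32 and 2.32. Their part in the factor values was not tested.

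**Figure D5:**
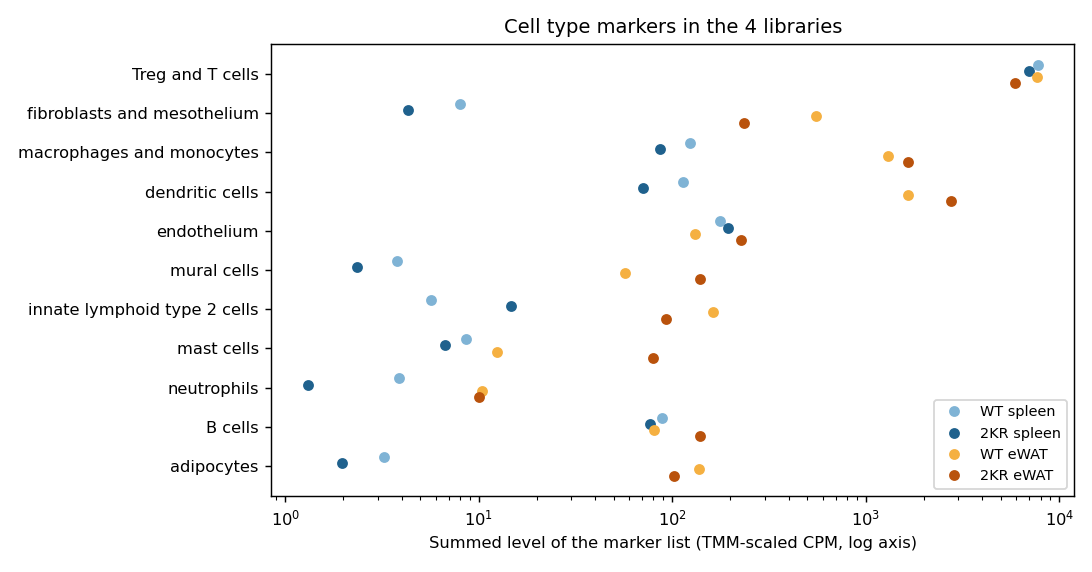
Summed level of each cell type marker list in the 4 libraries, in TMM-scaled CPM on a log axis; each point is 1 library. Markers of fibroblasts, macrophages, dendritic cells and mural cells are higher in both eWAT libraries than in both spleen libraries, and fibroblast markers are at 554 (WT) and 236 CPM (2KR) in eWAT.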

How the data were processed

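RNA from sorted Treg cells was sequenced in 4 libraries, 1 for each tissue and genotype, grouped by the sample labels. Deposited counts are whole reads per gene symbol, unscaled. Per the deposited readme, the authors aligned 100-base reads of poly-A libraries to mm9 with Tophat 2.1.0 (4 mismatches, up to 10 hits), after bcl2fastq 1.8.4. How reads were counted, and whether strand was used, is not given in the sources used here. No other gene's locus overlapped a member's in the deposited tables. The FPKM values, which the authors computed with Cufflinks 2.0.2 per the readme, served for order, transcripts and alternatives. The submitters' processing notes also name mm8.

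Tissue was tested in R 4.3.3 with edgeR 4.0.16 (filterByExpr, TMM, threshold 0.05). DESeq2 1.42.0 and limma 3.58.1 gave alternatives. The SE of a fold change is its size divided by the square root of the F statistic. Genotype ratios are differences of log2 CPM (TMM, prior count 2) with exact conditional binomial intervals of 95%. Other steps used Python 3.11.15 with scipy 1.17.1. The fit was checked on simulated data. Loci are 1-based, and promoter windows are GRCm38.p6.

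The members and lists were chosen with earlier results of these data known. Named beside the 9 members were the 5 nearest profiles of Areg, Penk and Vegfa, up to 4 called genes of each pathway list by size of tissue change, and fixed anchors (the ERBB receptors, Adam17, Rhbdf2, Csf1r, Il1rl1, Kdr, Flt1, Nrp1 and 3 opioid receptors). Other genes named from the lists were added after their values were seen, as were Vipr1 and the profiles nearest to Csf1.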

Additional observations from a re-analysis of the deposited data

Results flagged for a closer look

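In 3 genes the genotype ratio pointed in opposite directions in fat and spleen, with both counting intervals away from 0. The same held for 13.8% of the 12307 genes that reached 5 CPM in any library, and for 12.4% of those with a mean under 20 CPM. Csf1 and Tgfa are among the 12307 genes, while Ereg stayed below 5 CPM and is outside both shares. For Csf1 the 2KR over WT log2 ratio was −2.58 in eWAT and 0.23 in spleen. Its eWAT over spleen ratio was likewise 1.26 in WT and −1.54 in 2KR. For Tgfa the 2KR over WT ratio was 1.71 in eWAT and −2.66 in spleen. The spleen value, from 11 reads against 0, was set by the prior count. It was −4.48 with a prior count of 0.5 and −0.24 in log2(FPKM + 1). The WT level was 4.52-fold the limit of 3 reads in 2KR spleen, and the counting interval ended at −1.63. For Ereg the 2KR over WT ratio was 1.17 in eWAT and −1.78 in spleen. That spleen value, from 5 reads against 0, was −3.42 with a prior count of 0.5 and −0.05 in log2(FPKM + 1). The WT level of Ereg was 2.05-fold the limit of 3 reads, and the counting interval ended at −0.17. With 1 library in each group, these differences between tissues were not tested.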

How the results depend on the processing

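The labels give no replicate numbers, so no replicate block was fitted. Genotype as a further term sets each eWAT library beside the spleen library of its genotype, with 1 residual degree of freedom. Over the alternatives run, Areg, Egfr, Vegfa, Wnt11 and Penk kept the direction and the call of their tissue effect. When a library was left out, Wnt11 ranged from 11.25 to 11.57. It had 0 reads in both spleen libraries, so those values are not measured sizes. Its pooled eWAT level was 259-fold the spleen floor of 3 reads. In the same fits, Areg ranged from 5.004 to 7.45, Egfr from 2.16 to 3.45, Vegfa from 3.69 to 4.15 and Penk from −2.09 to −1.81. In each such fit the lone library of a tissue was assumed to vary like the other tissue's pair. Ereg lost its call at 3.36 with genotype as a further term and at 3.17 in DESeq2, and ranged from 2.14 to 7.48 when a library was left out. Tgfa was at 4.97 in DESeq2, past no threshold, and ranged from 3.96 to 10.44 when a library was left out. The upper ends for Ereg and Tgfa, both without WT spleen, rest on 0 spleen reads and are not measured sizes. Hbegf ranged from 0.61 to 1.54 when a library was left out. Csf1 was at −0.11 with genotype as a further term and ranged from −1.54 to 1.07 when a library was left out. The cause was not tested, except that fewer libraries enter the latter. Genes higher in eWAT numbered 5555, 3402 (without 2KR eWAT) to 5491 with a library left out and 2750 in limma on log2(FPKM + 1), where Ereg fell under the filter. Genes lower numbered 3833, and 1909 to 5278 with a library left out, with 1909 without WT spleen and 2178 without 2KR spleen. Total count scaling shifted the median eWAT genotype ratio of all genes by 0.25. Under it the ratio was −2.16 for Areg, −2.32 for Csf1, 0.33 for Penk and 0.64 for Wnt11. In FPKM it was −2.13 for Areg, −2.27 for Csf1 and 0.38 for Penk. Depth limits Ereg, Tgfa, Egfr and Vegfa in spleen, at 16 reads or fewer in a library.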

Other observations

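Among 12307 genes that reached 5 CPM in any library, 2 had an eWAT over spleen log2 ratio of 1 or higher in WT and of −1 or lower in 2KR. These were Csf1 and Vipr1, which encodes a receptor for vasoactive intestinal peptide and lay at 1.01 in WT and −1.84 in 2KR. This pair was sought after the Csf1 values were seen, and no test was made. The profiles nearest to Csf1 over the 4 libraries, also sought afterwards, lay at a distance of 0.80 or more. They included Plec, the cytoskeletal linker plectin, with 277 (WT) and 278 CPM (2KR) in spleen and 604 (WT) and 205 CPM (2KR) in eWAT. They also included Il12rb1, a subunit of the IL-12 and IL-23 receptors, with 93.7 (WT) and 79.3 CPM (2KR) in spleen and 113 (WT) and 43.6 CPM (2KR) in eWAT.

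Markers of mast cells stood apart in 1 fat library. Their 6 genes summed to 8.55 (WT) and 6.68 CPM (2KR) in spleen and 12.4 (WT) and 79.2 CPM (2KR) in eWAT, and Mcpt4, a mast cell protease, had 102 reads in 2KR eWAT and 0 in the 3 other libraries. B cell markers summed to between 76.7 and 138 CPM, the highest in 2KR eWAT, and neutrophil markers to at most 10.4 CPM in any library.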
